A study of Rattus norvegicus with 12 samples.

Results

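A2m, Timp1, Serpina1, Serpinb9, Serpinb2 and Serpinh1 are 6 genes of protease inhibitor families that were followed in rat sensory ganglia after nerve injury. They were taken by gene symbol and selected on their measured log2 differences between ligated and sham ganglia in these arrays, together with their family membership. They are 6 of 10411 measured genes. Together they are read by 8 of the 12783 probe sets that carry a single gene symbol. Serpinb9 and Serpinh1 have a pair of probe sets each and the others have 1.

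The tissue was the L4/L5 dorsal root ganglion, the cluster of sensory nerve cell bodies beside the spinal cord. All animals were adult male Sprague Dawley rats of 180 to 300 g, from a genetic sub-line called Low Pain (LP) or one called High Pain (HP). In the LP SNL and HP SNL groups the L4 and L5 spinal nerves were ligated (SNL, spinal nerve ligation, a model of neuropathic pain) and the ganglia were collected after 3 days. In the LP sham and HP sham groups the operation left the nerves undamaged. Each of these 4 groups has 3 Affymetrix arrays, 12 in all, and nothing in the labels says that the 3 came from separate animals. The p-values below therefore cover the variation among these arrays, part or all of which could be technical.

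Protease inhibitors set how far an injured tissue is taken apart and rebuilt. A2m encodes alpha-2-macroglobulin, which traps proteases of every catalytic class, and in the rat it is an acute phase protein of the liver. Timp1 encodes a secreted inhibitor of matrix metalloproteases, the enzymes that cut extracellular matrix. Serpins inhibit by offering a bait loop: Serpina1 encodes alpha-1-antitrypsin, which blocks neutrophil elastase, Serpinb2 encodes plasminogen activator inhibitor 2, which blocks urokinase, and Serpinb9 encodes an intracellular inhibitor of granzyme B. Serpinh1, also called Hsp47, has the serpin fold but inhibits no protease; it is a collagen chaperone of the endoplasmic reticulum.

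Promoter sequence from RefSeq (assembly GRCr8) was matched by symbol for 5 of the 6 genes; A2m had no entry. The windows of Timp1 and Serpinh1 are shown because AP-1 sites and heat shock elements are known elements of Timp1 and heat shock protein promoters, and because both genes had higher signals after ligation. Each line gives the 250 bases before the gene's start, 5′ to 3′, on the minus strand. The capitals mark TGAGTAA, a variant of the AP-1 site, in Timp1 (chrX:3771123-3771372), and a heat shock element of 3 units in Serpinh1 (chr1:163062977-163063226). That element is TTC, GAA and TTC, with any pair of bases between neighbours. The Timp1 window lies within the annotated span of its gene.
Timp1: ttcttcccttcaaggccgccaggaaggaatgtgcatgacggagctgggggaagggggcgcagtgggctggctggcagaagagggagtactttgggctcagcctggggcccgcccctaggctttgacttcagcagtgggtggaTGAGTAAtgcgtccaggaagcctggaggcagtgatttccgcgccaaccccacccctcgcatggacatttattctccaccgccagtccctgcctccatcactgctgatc
Serpinh1: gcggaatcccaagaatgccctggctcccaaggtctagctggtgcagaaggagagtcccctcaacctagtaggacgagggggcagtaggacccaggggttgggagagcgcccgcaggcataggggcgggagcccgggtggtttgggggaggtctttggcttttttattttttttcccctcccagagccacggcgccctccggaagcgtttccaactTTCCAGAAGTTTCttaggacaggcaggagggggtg

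The Timp1 motif begins at -108 from the start, and 2.9% of the 33469 promoter windows in the table hold that motif on either strand. The Serpinh1 motif begins at -35, and 0.798% of windows hold it. The search covered 6 motifs on both strands, from 250 bases before to 50 after the start, and some motifs were chosen after the sequences had been seen. Serpinb2 held the AP-1 motif TGANTCA at -189 (7.33% of windows), and Serpinh1 held GAANNTTC at -30, inside its longer element (8.59% of windows). The STAT motif TTCNNNGAA (8.87% of windows) and the C/EBP motif TTGCNNAA (10.6%) were not among the letters of these 5 windows. A match describes the sequence and is not evidence of binding.

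The deposited signals are linear, and each array had a mean of 500.1 after the lowest and highest 2% of values were left out. Array medians lay between 278.4 and 313.2. Correlations between arrays of log2 signal were 0.941 to 0.965 within groups and 0.923 to 0.961 between groups. Sensory neuron markers, which define this tissue, were bright in all groups, summing over 18 genes to 56031 to 61960 in LP SNL, 70602 to 76507 in LP sham, 62405 to 66535 in HP SNL and 72532 to 76389 in HP sham. The ratio of the 3′ over the 5′ control probe set of beta-actin, a sign of RNA quality, was 1.113 to 1.125 in LP SNL, 0.993 to 1.877 in LP sham, 1.118 to 1.342 in HP SNL and 1.483 to 1.847 in HP sham. It was lower on every HP SNL array than on every HP sham array. A fit with this ratio as a covariate was therefore among the alternatives. Differences below are log2 differences from limma on log2(signal + 1), with standard errors that share 1 estimate of spread per gene over all groups.

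After ligation Serpinb9 had lower signals in both lines and each of the other members had higher signals. The ligation comparison helped to choose the members, so their ligation values are a description and carry no test. For the record, 4 members lay higher and 1 lower past an adjusted p of 0.05 in LP, where 14.4% of all genes passed (7.66% higher and 6.79% lower). In HP 5 lay higher and 1 lower, where 13.6% of all genes passed (7.02% higher and 6.61% lower). With the actin ratio as a covariate 3 members passed in HP, without Serpinb2, Serpinb9 and Serpinh1. In that fit the HP log2 difference was 1.75 for Serpinb2, -0.45 for Serpinb9 and 0.59 for Serpinh1. In the main fit the median log2 difference of the 6 members was 1.23 in LP, against 0.02 over all genes. In HP it was 1.13, against -0.00 over all genes.

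**Figure D1:**
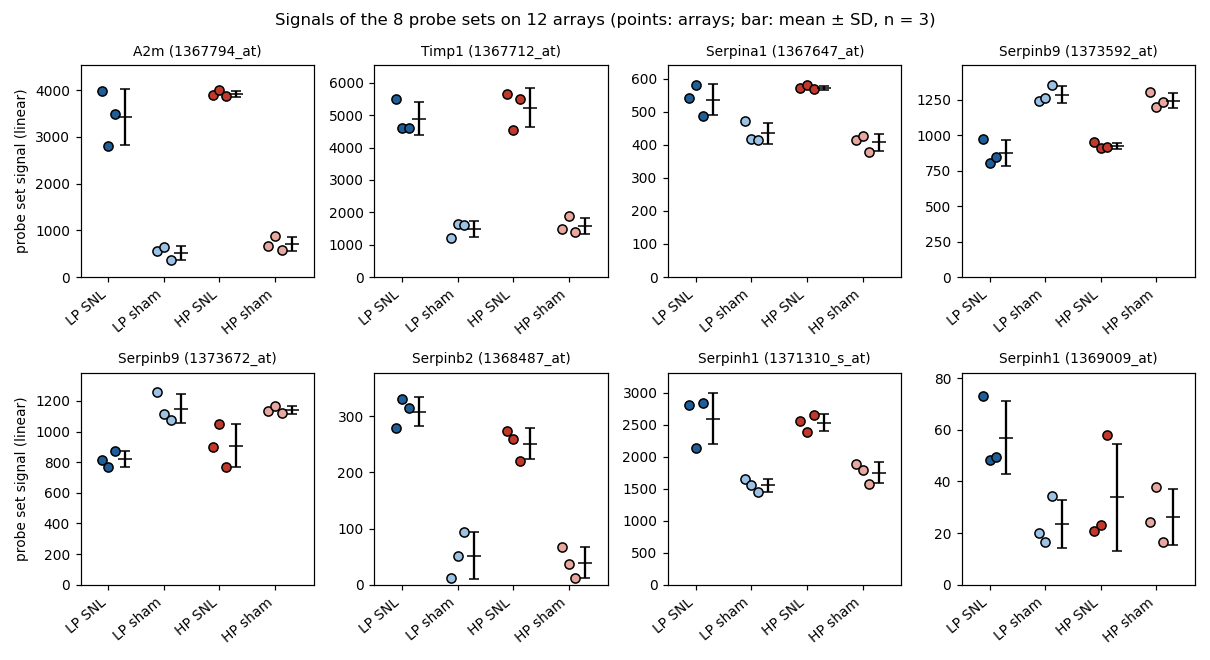
Signal (linear scale, vertical axes from 0) of each of the 8 probe sets on the 12 arrays, with 1 panel per probe set and 1 column per group. Points are arrays and bars are mean ± SD (n = 3); relative to their sham arrays, the SNL arrays of A2m, Timp1 and Serpinb2 stand furthest away, while the dim probe set of Serpinh1 stays at or below 73.1 on every array.

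The inhibitors of broad or metalloprotease range both had higher signals after SNL. A2m had signals of 3991.4, 2808.5 and 3484.8 on the LP SNL arrays, against 551.8, 635.4 and 354.8 on the LP sham arrays. In HP it had 3897.5, 4000.7 and 3879.7 after SNL, against 667.0, 870.9 and 587.7 after sham. Every SNL array stood above every sham array of both lines, and within each kind of surgery the lines overlapped. Arrays of SNL stood above all of sham for 16.5% of genes in LP and 17.2% in HP.

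The log2 difference of A2m between SNL and sham was 2.76 ± 0.22 (SE, n = 3 a group) in LP, a 6.79-fold ratio with a 95% interval of 4.81 to 9.58. In HP it was 2.49 ± 0.22, a 5.61-fold ratio with an interval of 3.97 to 7.92. Counted from the largest increase, A2m ranked 21 of 10411 genes in LP and 14 in HP. After sham its probe set stood at a median percentile of 69.2 (LP) and 75.6 (HP) among the probe sets of an array, and after SNL at 97.9 (LP) and 98.1 (HP).

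Timp1 had signals of 5485.8, 4600.8 and 4590.7 on the LP SNL arrays, against 1192.8, 1644.1 and 1617.1 on the LP sham arrays. In HP the signals were 5664.3, 4546.5 and 5491.5 after SNL, against 1488.5, 1871.0 and 1391.1 after sham. The SNL arrays of both lines lay far above all sham arrays, with the lines overlapping within each surgery. Its log2 difference was 1.73 ± 0.16 in LP and 1.73 ± 0.16 in HP, each a 3.32-fold ratio. Timp1 was already bright after sham, at a median percentile of 92.3 in LP and 91.3 in HP.

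The serpins that inhibit secreted serine proteases had ligation differences of unlike size. Serpinb2, the urokinase inhibitor, had signals of 279.7, 330.1 and 315.6 on the LP SNL arrays, against 11.2, 50.4 and 94.5 on the LP sham arrays. In HP it had 273.7, 259.9 and 220.8 after SNL, against 67.6, 37.4 and 12.3 after sham. Groups did not overlap between surgeries, and the sham arrays were dim and scattered: an array's 10th percentile signal ranged from 22.9 to 41.9.

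The log2 difference of Serpinb2 was 2.98 ± 0.71 in LP (95% interval 1.39 to 4.57) and 2.94 ± 0.71 in HP (1.35 to 4.53). Its standard errors were above those of every other member. Near background the fitted size depends on the processing, and over the alternatives tried it ran from 2.14 to 3.62 in LP and from 1.75 to 3.48 in HP. The lowest HP value came with the actin ratio as a covariate.

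Serpina1, alpha-1-antitrypsin, showed a small difference. It had signals of 541.4, 580.6 and 485.8 on the LP SNL arrays, against 471.9, 416.2 and 413.4 on the LP sham arrays. In HP it had 570.2, 579.7 and 567.2 after SNL, against 415.1, 426.6 and 379.3 after sham. No SNL array fell among the sham arrays, although the lowest LP SNL array and the highest LP sham array were close. The log2 difference was 0.30 ± 0.10 in LP, a 1.23-fold ratio, and 0.49 ± 0.10 in HP, a 1.41-fold ratio.

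Serpinb9, the intracellular inhibitor of granzyme B, was the member with lower signals after injury. The brighter probe set had 973.8, 801.9 and 846.9 on the LP SNL arrays, against 1241.8, 1261.6 and 1355.9 on the LP sham arrays. In HP it had 951.5, 910.4 and 914.3 after SNL, against 1301.2, 1195.8 and 1233.8 after sham. All SNL arrays lay below all sham arrays, and SNL arrays lay below all of sham for 14.7% of genes in LP and 17.1% in HP. The log2 difference was -0.56 ± 0.09 in LP, a ratio of 0.678, and -0.43 ± 0.09 in HP, a ratio of 0.745.

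The other Serpinb9 probe set ran the same way. Its signals were 814.7, 770.0 and 875.3 in LP SNL, against 1257.9, 1113.7 and 1077.1 in LP sham. In HP they were 902.0, 1047.4 and 767.6 after SNL, against 1135.1, 1166.7 and 1120.3 after sham. Again no array of one surgery fell among those of the other, with log2 differences of -0.49 ± 0.12 in LP and -0.34 ± 0.12 in HP.

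Serpinh1, the collagen chaperone, had signals of 2800.9, 2135.6 and 2845.3 on the LP SNL arrays, against 1653.1, 1558.8 and 1451.9 on the LP sham arrays. In HP it had 2555.4, 2385.3 and 2647.9 after SNL, against 1887.7, 1786.8 and 1570.7 after sham. The SNL arrays stood above the sham arrays of both lines without overlap. The log2 difference was 0.73 ± 0.13 in LP, a 1.66-fold ratio, and 0.54 ± 0.13 in HP, a 1.45-fold ratio.

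That probe set bears the Affymetrix suffix for probes shared by more than 1 transcript, and the other Serpinh1 probe set was near background. The dim probe set read 73.1, 48.4 and 49.5 in LP SNL, against 20.0, 16.6 and 34.2 in LP sham. In HP it read 20.8, 23.2 and 57.8 after SNL, against 24.1, 37.9 and 16.7 after sham, and these HP groups overlapped. The probe sets of Serpinh1 thus differ in level and, in HP, in whether the groups separate.

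**Figure D2:**
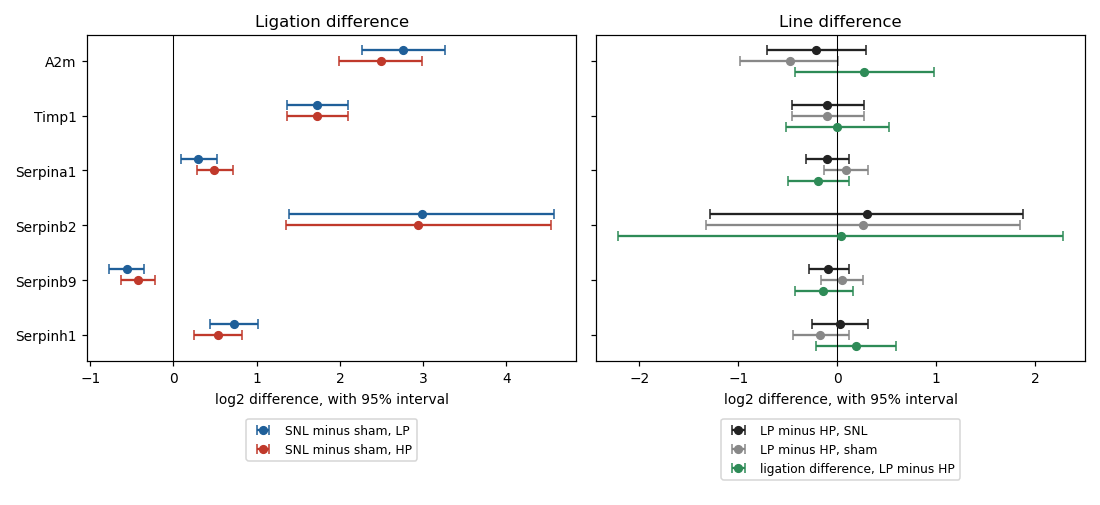
Log2 differences of the 6 genes (points) with 95% intervals from limma (bars); the left panel gives SNL minus sham in LP and HP, the right panel LP minus HP after SNL, LP minus HP after sham, and the ligation difference of LP minus that of HP. Serpinb2 has the widest intervals, and in the right panel every interval includes 0, that of A2m after sham close to its upper end (-0.98 to 0.01).

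The line comparison asks whether rats of the LP and HP sub-lines differed in these genes, which did not enter the choice of the members. None of the 6 passed an adjusted p of 0.05 in limma for LP against HP, and 0 of 6 had an unadjusted p under 0.05, after SNL, after sham or averaged over both. After SNL 0.173% of all genes passed (18 genes, with 10.7% under an unadjusted 0.05). After sham 0.00961% passed (1 gene, with 9.76% unadjusted), and averaged over surgery 0.672% (70 genes, with 14.6% unadjusted). No gene of the 10411 passed for the interaction, in which the ligation difference of LP is set against that of HP (0% called, 4.71% with an unadjusted p under 0.05).

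Among the members A2m had the lowest p-values in these contrasts. Its signal averaged 514 ± 144 in LP sham and 709 ± 146 in HP sham (SD, n = 3 each), a log2 difference of -0.48 ± 0.22 with a 95% interval of -0.98 to 0.01 and an adjusted p of 0.533. After SNL it averaged 3428 ± 593 in LP and 3926 ± 65.3 in HP, a log2 difference of -0.21 ± 0.22 (interval -0.71 to 0.29, adjusted p = 0.793). Averaged over surgery the difference was -0.35 ± 0.16 (unadjusted p = 0.0524, adjusted p = 0.347). The lines differed in A2m by less than the test could separate from the spread between arrays.

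Timp1 averaged 4892 ± 514 in LP SNL and 5234 ± 602 in HP SNL, a log2 difference of -0.10 ± 0.16 with an adjusted p of 0.884. After sham the difference was also -0.10 ± 0.16 (adjusted p = 0.893). The ligation difference of LP minus that of HP was 0.00 ± 0.23, with a 95% interval of -0.52 to 0.52 (adjusted p = 1). A line difference in the Timp1 response within that interval was not detectable with these arrays.

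The smaller responders gave narrower intervals. For Serpina1 the LP minus HP difference of the ligation response was -0.19 ± 0.14 (interval -0.50 to 0.12, adjusted p = 0.988). The corresponding value for Serpinb9 was -0.14 ± 0.13 (interval -0.43 to 0.16) and for Serpinh1 0.19 ± 0.18 (interval -0.21 to 0.59), each with an adjusted p of 0.988. Within a surgery their LP minus HP differences were between -0.17 and 0.09 on the log2 scale for the brighter probe sets. The dim probe set of Serpinh1 gave 0.86 ± 0.43 after SNL (adjusted p = 0.521) and 0.99 ± 0.60 for the interaction (adjusted p = 0.989). With the mean of both Serpinh1 probe sets these values were 0.44 after SNL and 0.59 for the interaction.

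Serpinb2 was the member whose SNL arrays separated by line. LP SNL arrays lay at 279.7 to 330.1 and HP SNL arrays at 220.8 to 273.7, a separation seen for 17.4% of all genes. The log2 difference was 0.30 ± 0.71 with an adjusted p of 0.921; the fit shares 1 estimate of spread between the tight SNL arrays and the scattered sham arrays. After sham it was 0.26 ± 0.71 (adjusted p = 0.943), and the interaction interval ran from -2.21 to 2.28.

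Serpina3n, an inhibitor of leukocyte elastase in the mouse, is shown for contrast because it did pass between the lines. It had signals of 1753.8, 1967.4 and 1560.1 in LP SNL, against 659.9, 696.5 and 837.1 in HP SNL, a log2 difference of 1.27 ± 0.20 (adjusted p = 0.0486, with 0.0116 to 0.177 over the alternatives). No member's own difference was tested against that of Serpina3n.

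**Figure D3:**
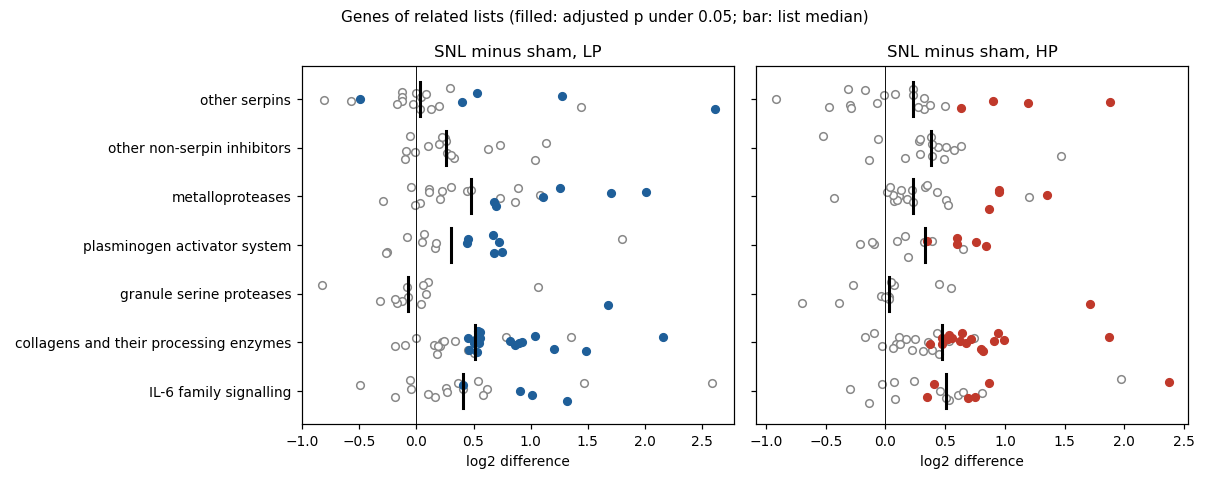
Log2 differences of SNL minus sham (horizontal axes) for genes of 7 related lists, LP on the left and HP on the right; filled points have an adjusted p under 0.05 in limma and black bars are list medians. Filled points sit above 0 in both panels, except Serpinb6a in LP; the collagen list holds the most of them, 17 in LP and 16 in HP.

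Proteases of the broad classes that these inhibitors act on were measured on the same arrays. The lists follow class and not known targets, and which listed proteases a member inhibits was not tested. Counts of list members that rose stand beside 7.66% of all genes in LP and 7.02% in HP. Of 21 metalloproteases, 6 rose in LP and 4 rose in HP after SNL, and none fell past the threshold. The list median was 0.48 in LP and 0.23 in HP. The LP count was 3 without LP sham replicate 1, LP sham replicate 2 or LP SNL replicate 3. Mmp16, a membrane-bound metalloprotease, rose by 1.26 ± 0.12 on the log2 scale in LP (adjusted p = 0.00016) and by 1.35 ± 0.12 in HP (adjusted p = 0.000183). Adamts1, a secreted matrix protease, rose by 1.70 ± 0.18 in LP and by 0.95 ± 0.18 in HP (adjusted p = 0.000246 and 0.00685).

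Mmp2, a gelatinase, rose by 1.11 ± 0.11 in LP and 0.87 ± 0.11 in HP on its brighter probe set, but its other probe set gave -0.31 in LP and 0.03 in HP. Mmp3, a stromelysin, rose by 0.68 ± 0.20 in LP (adjusted p = 0.0481) and 0.95 ± 0.20 in HP (adjusted p = 0.0125). The LP call of Mmp3 was lost in most alternatives, and its HP call with the actin covariate and with only the arrays compared. Adamts9 rose in LP, by 2.01 ± 0.47 (adjusted p = 0.0184), with 1.20 ± 0.47 in HP (adjusted p = 0.135). Its signals were scattered in LP SNL, from 54.5 to 190.7, and near background in LP sham, from 21.0 to 24.4. The LP call was lost without LP sham replicate 1 or 2 or LP SNL replicate 3.

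Other inhibitors of metalloproteases gave smaller values than Timp1. Timp2 differed by 0.22 ± 0.15 in LP and 0.29 ± 0.15 in HP, and Timp3 by 0.30 ± 0.16 and 0.29 ± 0.16, with no adjusted p under 0.05. Of 16 other inhibitors outside the serpins, 0 passed in either line, with medians of 0.25 in LP and 0.38 in HP. The difference between Timp1 and these genes was not tested.

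In a list of the plasminogen activator system, where Serpinb2 acts, and of clotting genes, 6 of 14 genes rose in LP and 5 of 14 in HP, with medians of 0.31 and 0.34. Procr and Thbd, which are among the genes that rose in each line, belong to the clotting genes. The HP count was 1 with the actin covariate, with only the arrays compared or without HP SNL replicate 3. It was 2 or 3 without any other single HP array. Plau, which encodes urokinase, rose by 0.67 ± 0.15 in LP (adjusted p = 0.0126) and 0.60 ± 0.15 in HP (adjusted p = 0.0229). Its signals were 482.0, 516.9 and 453.9 in LP SNL, against 309.1, 296.9 and 304.1 in LP sham. Those in HP were 456.8, 452.6 and 429.3 after SNL, against 223.2, 327.3 and 344.4 after sham. The enzyme's gene and the gene of its inhibitor Serpinb2 thus both had higher signals on all SNL arrays.

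Plaur, the urokinase receptor, rose by 0.75 ± 0.14 in LP and 0.84 ± 0.14 in HP, though its other probe set gave 0.49 and 0.20. Lrp1, an endocytic receptor that clears inhibitor complexes including those of alpha-2-macroglobulin, rose by 0.45 ± 0.09 in LP (adjusted p = 0.00683) and 0.35 ± 0.09 in HP (adjusted p = 0.027). Procr, the protein C receptor, rose by 0.68 ± 0.15 in LP and 0.60 ± 0.15 in HP. The HP calls of Plau, Lrp1 and Procr were lost in several alternatives, the actin covariate among them. These receptors have smaller differences than Serpinb2, but the difference between the genes was not tested.

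A list headed granule serine proteases held 13 genes, of which Prf1, Ctsc and Cpa3 do not encode serine proteases. Of the 13, 1 rose in each line, a share near that of all genes (7.66% in LP and 7.02% in HP). It was Gzmb, granzyme B, the target of Serpinb9. Gzmb had signals of 309.9, 264.2 and 234.7 in LP SNL, against 114.4, 84.5 and 59.3 in LP sham. In HP it had 392.1, 214.6 and 322.8 after SNL, against 101.1, 70.4 and 106.5 after sham. It rose by 1.68 ± 0.28 in LP (adjusted p = 0.00333) and by 1.71 ± 0.28 in HP (adjusted p = 0.00357). The protease and its inhibitor thus differed in opposite directions after ligation. Of 17 markers of T and cytotoxic cells, Gzmb was also the 1 that passed in each line. The summed signal of those 17 genes was 2436 to 3049 in LP SNL, 2249 to 2485 in LP sham, 2279 to 2480 in HP SNL and 2212 to 2359 in HP sham, so the groups overlapped. Neutrophil elastase, the main target of Serpina1, was not analysed here. Of 8 neutrophil markers 1 rose in each line, Lcn2, whose HP call was lost with the actin covariate or without HP sham replicate 3 and whose LP call was lost with only the arrays compared. Their summed signal was 746 to 1153 in LP SNL, 640 to 707 in LP sham, 1014 to 1656 in HP SNL and 649 to 1271 in HP sham.

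Other serpins gave mixed values. Of 20, 4 rose and 1 fell in LP, and 4 rose in HP, with medians of 0.04 in LP and 0.23 in HP. Besides Serpina3n, Serping1, the C1 inhibitor of complement, rose by 1.27 ± 0.25 in LP and 0.90 ± 0.25 in HP. Its HP call (adjusted p = 0.0373) was lost in several alternatives, with median centring and the actin covariate among them (highest adjusted p = 0.179). Serpinb1a, an intracellular inhibitor of granule proteases, rose by 0.40 ± 0.10 in LP and 0.63 ± 0.10 in HP. Serpine2, protease nexin 1, rose by 0.53 ± 0.13 in LP, and Serpinb6a fell by 0.49 in LP on the log2 scale. The LP calls of Serpinb1a, Serpine2 and Serpinb6a were lost in several alternatives, a fit of only the arrays compared among them. Serpinb7 rose in HP by 1.19 ± 0.33 (adjusted p = 0.0409), but its other probe set gave -2.14 there.

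Many collagen genes and enzymes rose in the ganglia in which their chaperone Serpinh1 was higher: of 33, 17 rose in LP and 16 in HP, with medians of 0.51 and 0.47. The HP count was 8 with the actin covariate, and it was 8 to 10 without HP sham replicate 1 or 3 or any single HP SNL array. The LP count was 7 with only the arrays compared and 10 without LP SNL replicate 1 or 3. Col18a1, which encodes a basement membrane collagen, rose by 2.16 ± 0.13 in LP and 1.87 ± 0.13 in HP. Col5a2, a fibrillar collagen, rose by 0.82 ± 0.10 in LP and 0.80 ± 0.10 in HP, and Pcolce, an enhancer of procollagen cleavage, by 0.86 ± 0.11 and 0.56 ± 0.11. Col12a1, a collagen bound to fibrils, rose by 1.20 ± 0.18 in LP and 0.67 ± 0.18 in HP. Its HP call was lost without any single HP array, with the actin covariate and with the mean of its probe sets, and its other probe set gave 0.57 in LP and 0.04 in HP. Plod3 and Bmp1, which modify and cleave procollagen, rose in both lines as well, by 0.55 ± 0.14 and 0.54 ± 0.12 in LP and 0.91 ± 0.14 and 0.72 ± 0.12 in HP. The LP call of Plod3 was lost with only the arrays compared and without LP sham replicate 2 or 3 or any single LP SNL array. That of Bmp1 was lost without LP sham replicate 2 or LP SNL replicate 1 or 3. Col1a1, the bulk fibrillar collagen, did not pass, at 0.50 ± 0.18 in LP (adjusted p = 0.0973) and 0.45 ± 0.18 in HP (adjusted p = 0.135).

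A2m and Timp1 are textbook targets of IL-6 family cytokines, which signal through gp130, Jak kinases and Stat3. Of 19 genes of that pathway, 4 rose in LP and 6 in HP. The HP count was 1 with the actin covariate and 2 to 4 without HP SNL replicate 2 or 3 or any single HP sham array, while the LP count was 7 with trended and robust variance or without LP sham replicate 3. Il6 itself had signals of 145.8, 163.9 and 120.8 in LP SNL, against 21.4, 73.9 and 81.4 in LP sham, and 154.7, 102.5 and 167.0 in HP SNL, against 58.8, 15 and 19.4 in HP sham. It rose in HP, by 2.37 ± 0.56 (adjusted p = 0.0199), with 1.47 ± 0.56 in LP (adjusted p = 0.114). The HP call was lost with the actin covariate and without HP sham replicate 2 or 3 or HP SNL replicate 1 or 3 (highest adjusted p = 0.139). Its HP sham signals of 15 and 19.4 and its lowest LP sham signal of 21.4 lay below the lowest 10th percentile of any array, 22.9. No gene passed for the interaction, so no difference between the lines is read from Il6 or the genes that follow. Jak2 rose by 0.91 ± 0.16 in LP and 0.75 ± 0.16 in HP, and Mcl1, a survival gene induced by Stat3, by 1.01 ± 0.20 and 0.87 ± 0.20. Socs3, the feedback inhibitor, rose by 1.32 ± 0.23 in LP, with 0.65 ± 0.23 in HP (adjusted p = 0.0976). Stat3 rose in HP by 0.41 ± 0.09, with 0.27 ± 0.09 in LP (adjusted p = 0.0642), and Cntf rose in LP by 0.41 ± 0.10. The HP calls of Mcl1 and Stat3 were lost with the actin covariate.

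**Figure D4:**
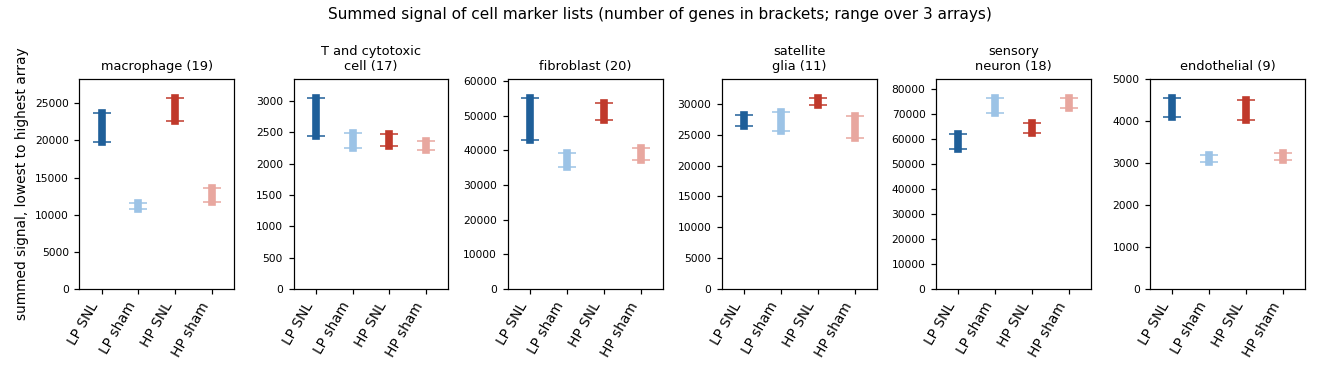
Summed signal (vertical axes from 0, linear scale) of 6 lists of cell markers in each group; each bar runs from the lowest to the highest of 3 arrays. Macrophage, fibroblast and endothelial sums are higher in SNL arrays than in sham arrays, and the sensory neuron sum is lower.

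Cell type markers shifted with ligation too. In whole ganglia, more cells of a type and more RNA per cell cannot be told apart. Of 19 macrophage markers 13 rose in LP and 14 in HP, and their summed signal was 19827 to 23691 in LP SNL, 10808 to 11567 in LP sham, 22681 to 25733 in HP SNL and 11706 to 13588 in HP sham. C1qb, a complement subunit of macrophages, rose by 2.24 ± 0.17 in LP and 2.02 ± 0.17 in HP. This count stayed within 1.5 times under every alternative. The part of these cells in the A2m, Timp1 and Serpinb2 values was not tested.

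Of 20 fibroblast markers 10 rose and 2 fell in LP, and 9 rose and 1 fell in HP. The 10 HP calls were 5 with the actin covariate or without HP sham replicate 3, and the 12 LP calls were 6 with only the arrays compared. Fn1, fibronectin, rose by 1.32 ± 0.18 in LP and 1.26 ± 0.18 in HP. Fbln2, the marker that fell in both lines, was at -0.69 ± 0.13 in LP and -0.79 ± 0.13 in HP. The summed fibroblast signal was 42876 to 55063 in LP SNL, 35152 to 39233 in LP sham, 48582 to 53612 in HP SNL and 37245 to 40760 in HP sham. Twist2 was under the 10th percentile of each array throughout. Col1a1, Col1a2 and Col3a1 stand in both this list and the collagen list, so the counts of these lists are not independent. Fibroblasts are among the cells that make Serpinh1 and collagens, and their part in those values was not tested.

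In satellite glia, which wrap the sensory neurons, 4 of 11 markers rose and 1 fell in each line. Gfap, the glial filament gene, rose by 1.54 ± 0.09 in LP and 1.67 ± 0.09 in HP, and Entpd2, Gja1 and Glul rose too. Cadm1 fell, at -1.20 ± 0.10 in LP and -0.93 ± 0.10 in HP. Fabp7, at -0.60 ± 0.19 in LP and -0.55 ± 0.19 in HP, and Kcnj10, at -0.30 ± 0.19 and 0.05 ± 0.19, did not pass. Of 10 Schwann cell markers 2 rose and 1 fell in each line. With the actin covariate none of them passed in HP. Endothelial markers rose in 3 of 9 cases in LP and 4 of 9 in HP, where 1 passed with the actin covariate.

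Part of the sensory neuron markers went the way of Serpinb9. Of 18, 9 fell in LP and 8 in HP, and none rose, with medians of -0.44 in LP and -0.31 in HP. Over all genes 6.79% fell in LP and 6.61% in HP. Several markers of the list did not pass and lay near 0. Uchl1 gave -0.07 ± 0.10 in LP and -0.02 ± 0.10 in HP, Tubb3 -0.18 ± 0.13 and -0.11 ± 0.13, and Prph -0.04 ± 0.12 and 0.08 ± 0.12. Scn10a and Scn11a, sodium channels of pain neurons, differed by -1.86 ± 0.08 and -3.08 ± 0.21 in LP and by -1.30 ± 0.08 and -1.74 ± 0.21 in HP. The part of the neurons in the Serpinb9 values was not tested.

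Because A2m and Serpina1 are liver plasma proteins, other genes of that kind were read as well. Of 19, Lbp and Alb rose in LP and Lbp in HP, with list medians of 0.04 in LP and 0.17 in HP. Their summed signal was 3150 to 3341 in LP SNL, 2482 to 2854 in LP sham, 2597 to 3238 in HP SNL and 1997 to 2535 in HP sham. This sum was higher after SNL in both lines without overlap. Lbp, which binds bacterial lipopolysaccharide, rose by 2.08 ± 0.26 in LP and 1.38 ± 0.26 in HP, and its HP call was lost with the actin covariate (adjusted p = 0.0504). Alb, albumin, the defining liver gene, had 119.9, 156.9 and 147.5 in LP SNL, against 93.4, 76.5 and 97.5 in LP sham, and in HP it had 150.1, 151.1 and 139.5 after SNL, against 96.5, 137.3 and 118.0 after sham. The other Alb probe set differed by -0.46 in LP and 0.34 in HP. The LP call of Alb (adjusted p = 0.0173 in limma) was lost in several alternatives, the mean of its probe sets among them (highest adjusted p = 0.839). Apoa1 was under the 10th percentile of each array.

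Muscle and blood markers were checked as possible carry-over from dissection. Of 15 skeletal muscle markers none passed in LP, and 5 fell and 1 rose in HP. Their summed signal was 4826 to 5371 in LP SNL, 5788 to 6095 in LP sham, 4681 to 5305 in HP SNL and 6387 to 7466 in HP sham, lower after SNL in both lines without overlap. The median log2 difference of the list was -0.59 in HP but -0.03 in LP, so the lower LP sum was not a shared fall of the list. Pvalb, whose cell source in these ganglia was not tested, had the lowest LP value, at -0.74 ± 0.25 (adjusted p = 0.0748 in limma). It gave a like value in HP, -0.76 ± 0.25. Acta1 gave -0.20 ± 0.34 and Mb 0.25 ± 0.22 in LP. The 6 HP calls were 0 without HP sham replicate 3 or HP SNL replicate 2 or 3. Of 5 red blood cell markers none passed in LP and 1, Hbb, rose in HP, by 0.54 ± 0.15 (adjusted p = 0.0409 in limma). That call was lost in many alternatives, the actin covariate among them. The summed red blood cell signal was 9768 to 13577 in LP SNL and 9112 to 12971 in LP sham. In HP it was 13804 to 15442 after SNL and 9152 to 10702 after sham, higher after SNL without overlap. The part of muscle and blood in the member values was not tested.

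The genes whose pattern over the 12 arrays was most like each member were named by Pearson correlation of log2 signals. The arrays share the ligation difference, so these values are a description. A2m was closest to Crabp2 (r = 0.991), Fgl2 (0.987) and Gfap (0.984). Timp1 was closest to Tnfrsf1a (0.994), Pdlim1 (0.994) and Lama4 (0.991), and Serpinh1 to Cnn2 (0.978), Flna (0.974) and Ezr (0.960). Those genes all had higher values after SNL in both lines, by 0.65 to 1.67 on the log2 scale.

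For Serpinb9 the closest genes had lower values after SNL. They were Wipf3 (r = 0.978), Isl2 (0.978) and Steap3 (0.974), with Isl2, a transcription factor of neurons, at -2.25 ± 0.17 in LP and -1.79 ± 0.17 in HP. Serpina1 was closest to Csrnp1 (0.963), Tm4sf1 (0.957) and Tial1 (0.948), and Serpinb2 to Hebp1 (0.970), Inpp5a (0.970) and Ackr3 (0.967).

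Correlations between members were high over the arrays and lower once the group means were taken out. Over the 12 arrays A2m and Timp1 correlated at r = 0.97, and their deviations from the group means at 0.26. Serpinb9 ran opposite to A2m at -0.93, with -0.03 for the deviations. A2m and Serpinh1 had 0.95 and 0.60, and Timp1 and Serpinb2 had 0.91 and 0.56. The deviations of every other pair of members correlated between -0.25 and 0.41.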

How the data were processed

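RNA of 12 samples was hybridised to Affymetrix arrays, 3 for each of 4 groups read from the sample titles. The deposited table holds 1 linear intensity per probe set and array. The submitters' processing notes name RMA with no version, yet the authors' deposited intensities are on a linear scale with a fixed trimmed mean, as global scaling gives, so the steps are not settled here. Further steps are not stated in the labels or headers.

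Values were taken as log2(signal + 1) without further normalization; 109 of 191076 were under 1. Probe sets were named through the platform annotation, updated by a RefSeq table (GRCr8), and each of 10411 genes was read by its brightest probe set on average. One limma fit of 4 group means (limma 3.58.1, statmod 1.5.0, R 4.3.3; 8 residual and 2.05 prior degrees of freedom) gave two-sided tests, adjusted by Benjamini-Hochberg over all genes at 0.05. Replicates spread more at low signal, with a median SD of 0.614 log2 units for the dimmest 25% and 0.135 for the brightest 25%; array number limits precision. The fit was tested on simulated data.

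The members and all gene lists were chosen with earlier results of these data known. Named genes were the members, Serpina3n and Alb, the 4 genes with the smallest p past the threshold per pathway list and line (2 per cell list), and the 3 genes best correlated with each member. Timp2, Timp3 and Col1a1 were added after their values were seen. Further genes named in the text also fall outside this rule. Among them are Thbd, Entpd2, Gja1, Glul, Fabp7, Kcnj10, Uchl1, Tubb3, Prph, Twist2, Apoa1, Pvalb, Acta1 and Mb. Alternatives are given in the closing section.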

Additional observations from a re-analysis of the deposited data

How the results depend on the processing

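The setting was varied in 24 ways, 12 of them leaving out 1 array. No member passed in a line contrast or the interaction in any (range 0 to 0 without one array). Of the 6 members, those past the threshold after ligation in HP fell to 3 with the actin ratio as a covariate, where the main count was 6, and ranged from 4 to 6 without one array; in LP, with a main count of 5, they ranged from 4 to 5. Serpinb2 missed the threshold in 7 of 23 alternatives in HP and 4 of 23 in LP, including the replicate block in HP, Serpinh1 in 5 of 24 in HP, Serpinb9 in 2 of 24 in HP and Serpina1 in 22 of 24 in LP; A2m and Timp1 in none. Timp1 in HP gave 1.44 with the actin covariate, and Serpinh1 in LP gave 1.00 with the mean of its probe sets. Other serpins past the threshold in HP numbered 2 with median centring, against 4 (2 to 3 without one array, 2 without HP sham replicate 3, HP SNL replicate 3 or LP SNL replicate 2), and in LP 2 with only the arrays compared, against 5 (2 to 6 without one array, 2 without LP sham replicate 1 or LP SNL replicate 3, 3 without LP sham replicate 2 or 3). Other non-serpin inhibitors numbered 0 in HP (0 to 1 without one array, 1 without HP sham replicate 2). In LP the 0 became 2 without the dimmest 25% of genes, with quantile normalization, a pseudocount of 32 or trended and robust variance, and 1 with the replicate block or array weights (0 to 1 without one array, 1 without HP sham replicate 2 or 3 or LP sham replicate 3). Same-numbered samples had deviations correlated at -0.158 to 0.098. These weak values show no pairing by number but cannot exclude one.

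Uncalled line differences near 0 changed sign, each with an adjusted p over 0.05. For LP minus HP, Timp1 after sham was 0.02 with array weights (-0.18 to 0.05 without one array) and after SNL 0.03 with quantile normalization; its interaction was -0.01 with median centring, -0.00 with a pseudocount of 16 or 32 and -0.11 with array weights (-0.15 to 0.09). Averaged over surgery, Serpina1 was 0.04 with the actin covariate (-0.03 to 0.03 without one array), Serpinb9 ranged from -0.06 to 0.01 and Serpinh1 was 0.15 with the mean of its probe sets. Serpinh1 after SNL was -0.02 with median centring (-0.05 to 0.16). With the actin covariate, Serpinb2 was -0.75 after sham (-0.39 to 1.1 without one array), -0.05 after SNL and -0.40 on average (-0.05 to 0.7); its interaction was -0.13 with quantile normalization and -0.05 with array weights (-0.8 to 0.69). Serpinb7 after ligation in HP was -0.48 with the mean of its probe sets. Of 85 ligation calls of named list genes, 48 held in every alternative. The cause was not tested. Dim probe sets such as Serpinb2 after sham limit these values.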
